A study of Mus musculus with 64 samples.

Results

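Fibronectin (Fn1), 5 matricellular genes (Sparc, Spp1, Tnc, Thbs1 and Thbs2) and 4 lysyl oxidases (Lox, Loxl1, Loxl2 and Loxl3) were followed in mouse pancreatic tumour cells grown alone or with fibroblasts. The 10 genes were chosen by symbol, and all 10 of them were present among the 39017 genes of the count table. The cells were 7 clones grown out of a mouse pancreatic tumour that carried Trp53 +/R172H and Pdx1-Cre, and a line named KPC1, all of a mixed C57BL/6 background. Mono-culture and coculture of a clone carry the same alleles, and a clone is 1 clonal line, not a sample of tumours. The genotype is given for the tumour of the clones and not separately for KPC1. Each of the 8 lines was taken from mono-culture and, after 48 h in coculture with fibroblasts, by sorting on the GFP that the tumour cells carried, with 4 RNA-seq libraries per line and culture, 64 in all. The labels give neither the fibroblasts used nor any sort of the cells from mono-culture. The study divides the clones by metabolism into 2 sets, with E, H and V in group 1 and with K, M, N and T as group 2, while KPC1 belongs to neither.

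Matricellular proteins are secreted into the extracellular matrix, where they bind cell surface receptors and growth factors more than they bear load. Fibronectin is assembled into fibrils by integrins, and collagen is laid down along them. Lysyl oxidases are secreted copper enzymes that oxidise lysines of collagen and elastin, which then form the covalent crosslinks that stiffen the matrix. In pancreatic ductal adenocarcinoma much of this matrix is made by fibroblasts, while tumour cells also express part of it.

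In the mm10 build (GRCm38, GENCODE annotation) the genes lie on 10 different chromosomes, with Fn1 at chr1:71585520-71653200 (minus strand), Sparc at chr11:55394500-55423183 (minus strand), Spp1 at chr5:104435118-104441050 (plus strand), Tnc at chr4:63959785-64047015 (minus strand), Thbs1 at chr2:118111876-118127133 (plus strand) and Thbs2 at chr17:14665500-14694235 (minus strand). The oxidases are found with Lox at chr18:52516067-52529867 (minus strand), Loxl1 at chr9:58287738-58313186 (minus strand), Loxl2 at chr14:69609068-69695834 (plus strand) and Loxl3 at chr6:83034173-83052562 (plus strand).

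The libraries held between 11178721 and 21333683 counts, with a median of 15648009. Values below are CPM, counts scaled to library size after TMM, unless RPKM (scaled to gene length as well) is named. The 20 genes of a fibroblast marker list were followed beside the members, since sorted coculture libraries can hold RNA of both cell types. Of these, Dcn, Fap, Postn and Thy1 were picked because earlier work on these data found them at or near 0 in mono-culture. Their low level there was thus fixed by the choice. The summed level of these 4 was 0.0134 to 0.0743 CPM in the line means of mono-culture and 56.7 to 97.4 CPM after coculture. Thy1 was at 0 in every mono-culture mean. Other genes of the list were present in mono-culture, with line means of up to 101 CPM for Fbln1 and 87.0 CPM for Pdgfrb. Over the whole list, 19 genes were tested, 16 were higher in coculture and 0 lower, and its summed level was 106 to 302 CPM in mono-culture and 694 to 1481 CPM in coculture. In a pool of sorted cells, more cells of a type and more RNA per cell cannot be told apart. Of 8 ductal tumour cell markers, Krt18 was at 968 CPM or above in every mono-culture line, whereas Epcam did not exceed 0.370 CPM in any, and over the lines 1 of the 8 was higher in coculture and 3 were lower. The macrophage markers Ptprc and Lyz2 did not exceed 0.118 CPM in any line mean of either culture, and Cd68 was 3.91 to 18.5 CPM in mono-culture and 11.8 to 40.5 CPM in coculture. Of the macrophage list, 2 of 6 genes were tested, with 1 higher (Cd68) and 1 lower. Of 4 endothelial markers, 3 were tested, with 1 higher and 1 lower.

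Per length, the 10 genes covered a wide range of levels. In mono-culture the median line gave Spp1 2293 RPKM, Fn1 475 RPKM, Sparc 141 RPKM and Thbs1 97.3 RPKM. Loxl2 followed at 9.91 RPKM, Loxl3 at 2.69 RPKM and Tnc at 1.65 RPKM. Thbs2, Lox and Loxl1 were close to absent there, at 0.0924, 0.0196 and 0.0105 RPKM. In coculture the 4 most abundant genes kept that order, with 3045 RPKM for Spp1, 505 RPKM for Fn1, 203 RPKM for Sparc and 85.4 RPKM for Thbs1. Lox, the founding enzyme of its family, reached 11.7 RPKM in the median line of coculture, next to 15.5 RPKM for Loxl2 and above the 5.72 RPKM of Loxl3 and the 3.71 RPKM of Loxl1.

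**Figure D1:**
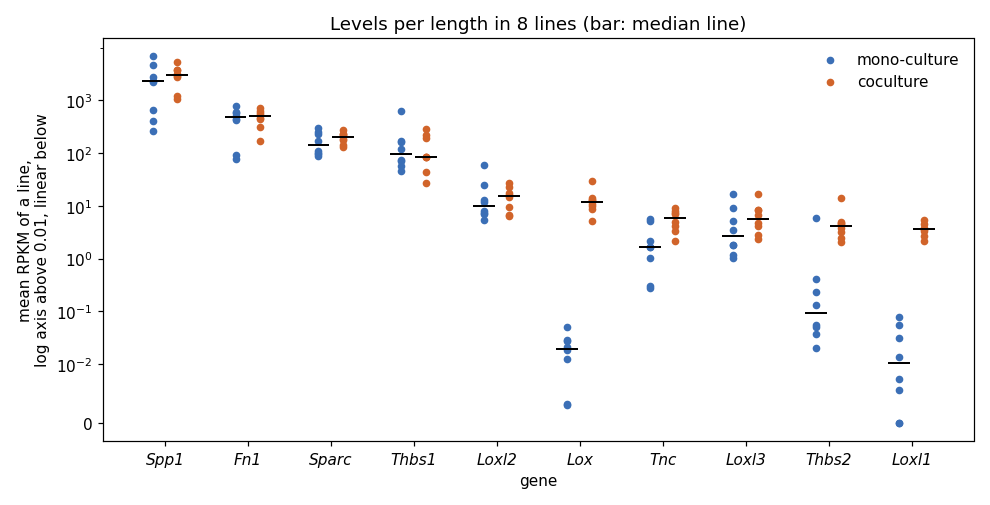
RPKM of the 10 genes on an axis that is logarithmic above 0.01 and linear below, with a point for the mean of each of the 8 lines (blue, mono-culture, and orange, coculture) and a bar at the median line. Lox, Loxl1 and, outside 1 line, Thbs2 lie below 1 RPKM in mono-culture and above 2 RPKM in coculture, while Spp1, Fn1, Sparc and Thbs1 stay above 20 RPKM in both.

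To ask which of these genes responded to fibroblasts across the lines, coculture was compared with mono-culture over the 8 lines by edgeR's quasi-likelihood test on the summed counts of each line, with an adjusted p under 0.1 as the threshold. Of the 10 genes, 7 were higher in coculture and 0 lower, where 26.8% of all 16246 genes tested were called higher and 25.2% lower. Lox, Loxl1, Thbs2, Tnc, Loxl3, Sparc and Spp1 passed, and Fn1, Loxl2 and Thbs1 did not. The median log2 fold change of the 10 was 0.81, beside 0.006 over all genes tested. Counted by line, 51 of the 80 combinations of gene and line were higher in coculture, 6 were lower and 23 did not pass. All 10 genes rose in clone T, where 62.2% of the 14134 genes tested were called in either direction. In clone M, 9 rose and none fell, beside a background of 38.9%. This share and those that follow count calls in both directions. In clone E, 7 rose and 1 fell (61.3%), in clone K 7 rose and 1 fell (20.5%), and in clone N 7 rose and none fell (37.4%). Fewer passed in the other lines, with 4 higher in clone H (44%), 4 higher and 2 lower in clone V (61.5%) and 3 higher and 2 lower in KPC1 (39.2%). In clones E, V and T the background was so broad that the counts say little about these genes in particular. In clone H and KPC1 the counts lay near the background, and the same holds for them.

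**Figure D2:**
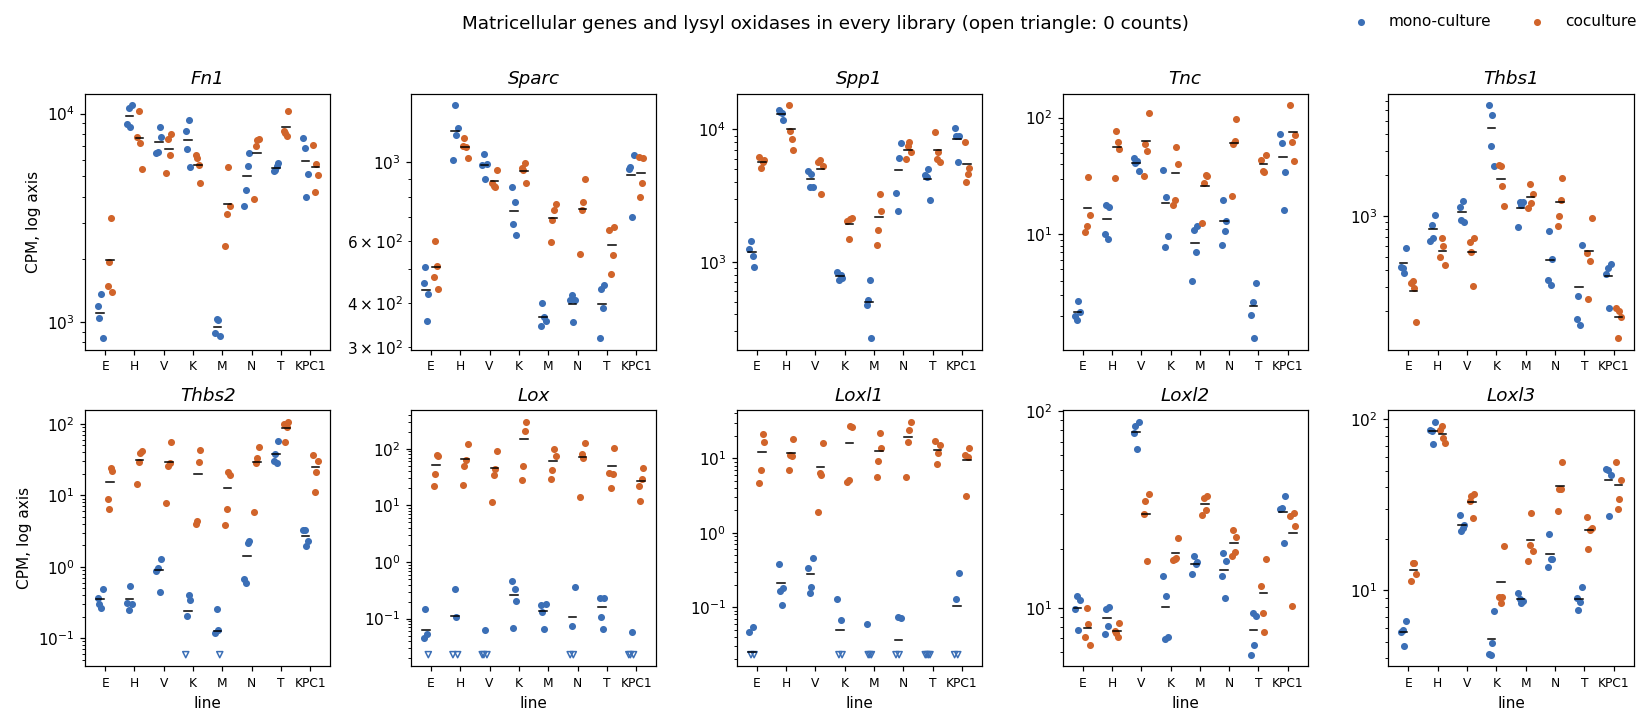
CPM of each gene in every library on logarithmic axes, by line, with mono-culture in blue, coculture in orange, a bar at the mean of the 4 libraries and open triangles for libraries with 0 counts. For Lox and Loxl1 all coculture libraries of a line lie above its mono-culture libraries in 8 of 8 lines, while Thbs1 libraries lie above in 1 line and below in 2.

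Fn1, the fibril-forming adhesive glycoprotein, was abundant in most lines and low in clones E and M. In clone M it measured 888, 1041, 1030 and 858 CPM in the mono-culture libraries and 2315, 3287, 5550 and 3605 CPM in coculture. In clone H it measured 8928, 10621, 8626 and 10960 CPM alone and 7743, 10303, 7236 and 5412 CPM with fibroblasts. The libraries of clone M thus did not overlap between cultures, while those of clone H did. Fn1 rose in clone M (log2 fold change 1.95, SE 0.23, edgeR adjusted p = 5.187e-09), in clone E (0.85, SE 0.23, adjusted p = 0.00142) and in clone T (0.64, SE 0.23, adjusted p = 0.0134), and did not pass in the other lines. A replicate block, with a term for each number within each line, paired the mono-culture and coculture libraries of 1 number. With this block clone H passed with a log2 fold change of -0.38 (edgeR adjusted p = 0.0703) and clone N with a rise of 0.36 (adjusted p = 0.0912). Over the 8 lines the log2 fold change of Fn1 was 0.36 (SE 0.24, adjusted p = 0.238 by edgeR). Fn1 was called higher when the 64 libraries rather than the sums of the lines were fitted with that block (0.33, adjusted p = 0.031). That fit counts the libraries of a line as replicates, so its p-value does not measure the spread between lines. The response differed between lines (edgeR F test of the interaction, adjusted p = 1.024e-07).

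Sparc, a collagen-binding matricellular protein also called osteonectin, had the narrowest range of levels between lines in mono-culture. In clone N its 4 libraries gave 407, 422, 352 and 407 CPM in mono-culture and 550, 733, 773 and 899 CPM in coculture. In clone M they gave 343, 400, 366 and 355 CPM in mono-culture and 595, 687, 732 and 761 CPM in coculture. In both clones every coculture library was above every mono-culture library. Sparc rose in clones M (0.92, SE 0.13), N (0.90, SE 0.13), T (0.55, SE 0.13) and K (0.38, SE 0.13), which make up group 2, and did not pass in E (0.22, SE 0.13), H (-0.15, SE 0.13), V (-0.15, SE 0.13) or KPC1 (0.02, SE 0.13). The responses differed between lines (interaction, adjusted p = 1.475e-07), and a difference between groups 1 and 2 in the response was not tested. Over the lines the log2 fold change was 0.35 (SE 0.13, adjusted p = 0.0477 by edgeR). That call rested on single clones of group 2, since the adjusted p was 0.116 without clone M, 0.124 without clone N and 0.116 without clone T. The call in clone K was lost without the libraries numbered 2, 3 or 4 (adjusted p = 0.137, 0.121 and 0.144).

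Spp1, which encodes the integrin and CD44 ligand osteopontin, was the most abundant of the 10 and varied most between lines among the abundant genes. Its libraries in clone E gave 1253, 1431, 1113 and 913 CPM in mono-culture and 6224, 5069, 5697 and 5840 CPM in coculture. Those in clone M gave 469, 514, 729 and 265 CPM in mono-culture and 1332, 1750, 3248 and 2403 CPM in coculture. Clone H, the highest in mono-culture, gave 13944, 13635, 13368 and 11839 CPM alone and 15240, 9761, 8425 and 7030 CPM with fibroblasts. The libraries of clones E and M were fully separated between cultures, and those of clone H overlapped. Spp1 rose in clones E (2.28, SE 0.28), M (2.14, SE 0.27), K (1.32, SE 0.27) and T (0.73, SE 0.26), and fell by 0.64 on the log2 scale in KPC1 (SE 0.26, edgeR adjusted p = 0.0597). The fall in KPC1 did not pass without the libraries numbered 2 or 4 (adjusted p = 0.274 and 0.147). It did not pass either with a term for the running number in the sample title, up to 43 or above it (0.113). Over the lines Spp1 was higher by 0.79 (SE 0.33, adjusted p = 0.0749 by edgeR), a call that was lost without the libraries numbered 1 (adjusted p = 0.123) and without clone E, K, M, N or T (0.175, 0.144, 0.161, 0.109 and 0.129). Without number 1 clone H passed with a fall of 0.61 (adjusted p = 0.0952), and without number 4 clone N passed with a rise of 0.85 (adjusted p = 0.0323), as it did with the replicate block (0.66, adjusted p = 0.0264). Responses of Spp1 differed between lines (interaction, adjusted p = 1.719e-09).

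The start regions of Spp1 and of Tnc and Thbs2, the matricellular genes with the largest responses in coculture, are printed here because they are the ones the results turn on for which a RefSeq sequence was at hand. Entries were found for 4 of the 10 genes (Sparc, Spp1, Tnc and Thbs2) and none for Fn1, Thbs1, Lox, Loxl1, Loxl2 and Loxl3. Each window holds 250 bases before and 50 after an annotated start, in build GRCm38.p6, at chr5:104434861-104435160 on the plus strand (Spp1), chr4:64046966-64047265 on the minus strand (Tnc) and chr17:14694213-14694512 on the minus strand (Thbs2). Capitals mark matches to TATAAA or CCAAT on either strand.
Spp1: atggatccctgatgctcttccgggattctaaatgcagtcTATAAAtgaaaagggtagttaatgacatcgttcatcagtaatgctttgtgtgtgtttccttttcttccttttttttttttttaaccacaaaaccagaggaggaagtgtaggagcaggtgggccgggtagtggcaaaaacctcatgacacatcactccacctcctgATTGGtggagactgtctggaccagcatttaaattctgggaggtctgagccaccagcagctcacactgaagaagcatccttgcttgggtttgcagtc
Tnc: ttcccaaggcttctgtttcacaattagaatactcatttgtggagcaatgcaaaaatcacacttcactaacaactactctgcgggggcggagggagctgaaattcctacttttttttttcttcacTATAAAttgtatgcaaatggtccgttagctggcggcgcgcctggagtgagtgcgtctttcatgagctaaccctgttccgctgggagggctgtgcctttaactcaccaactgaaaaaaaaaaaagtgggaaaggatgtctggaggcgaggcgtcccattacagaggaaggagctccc
Thbs2: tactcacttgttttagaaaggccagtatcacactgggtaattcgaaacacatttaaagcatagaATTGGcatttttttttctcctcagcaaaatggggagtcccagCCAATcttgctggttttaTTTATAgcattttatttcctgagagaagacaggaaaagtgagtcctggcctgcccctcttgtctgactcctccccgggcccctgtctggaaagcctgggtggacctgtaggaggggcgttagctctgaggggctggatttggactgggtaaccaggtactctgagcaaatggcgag
TATAAA was found in all 3 of these windows, at 211 bases before the start in Spp1, 126 before in Tnc and, on the reverse strand, 126 before in Thbs2. It occurs in 13.6% of the 32851 windows of the same length. CCAAT was found in Spp1, once on the reverse strand, and in Thbs2, once on each strand, and occurs in 37.4% of all windows. The letters TGANTCA, which AP-1 factors bind, and CATTCC, which TEAD factors bind, were searched on both strands too and were not in any of the 4 windows, where 7.81% and 14.7% of all windows hold them. In the window of Sparc none of the 4 motifs was found.

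Tnc, which encodes tenascin-C, a hexameric glycoprotein of wound and tumour stroma, was low in mono-culture in clones E and T. In clone T it measured 2.05, 2.63, 1.29 and 3.81 CPM alone and 43.4, 34.8, 34.1 and 47.7 CPM in coculture. In clone E it measured 1.99, 1.86, 2.69 and 2.17 CPM alone and 10.5, 11.8, 30.7 and 14.5 CPM in coculture. In V, where it was already high, it measured 44.95, 40.95, 42.7 and 35.1 CPM alone and 31.3, 59.2, 51.6 and 109 CPM in coculture, and the libraries overlapped. Tnc rose in clones T (4.02, SE 0.52), E (2.94, SE 0.52), N (2.21, SE 0.45), H (2.05, SE 0.45) and M (1.62, SE 0.46), and did not pass in K (0.84, SE 0.43), KPC1 (0.72, SE 0.42) or V (0.62, SE 0.42). Over the lines it was higher by 1.85 (SE 0.36, adjusted p = 0.00363 by edgeR), with coculture libraries fully above in 5 of 8 lines. Without the libraries numbered 1, K and V passed as well (adjusted p = 0.00627 and 0.0515), and with the replicate block K and KPC1 did (0.0448 and 0.0385).

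Thbs1 and Thbs2 encode thrombospondins, secreted glycoproteins that bind CD36 and CD47 and restrain angiogenesis. Thbs1 was the 1 member of the set with calls in both directions in several lines. In clone N it measured 339, 780, 309 and 481 CPM alone and 843, 997, 1310 and 1900 CPM in coculture. In clone K it measured 6501, 3240, 5556 and 2311 CPM alone and 2353, 2334, 1653 and 1177 CPM in coculture. Clone N thus gave separated libraries with coculture above, and in clone K the highest coculture libraries overlapped the lowest mono-culture library. Thbs1 rose in clones N (1.40, SE 0.34) and T (0.89, SE 0.34), and fell by 1.23 in clone K (SE 0.34), by 1.00 in KPC1 (SE 0.34), by 0.97 in clone V (SE 0.34) and by 0.69 in clone E (SE 0.34) on the log2 scale. Over the lines its log2 fold change was -0.24 (SE 0.29, adjusted p = 0.534 by edgeR), and the interaction passed (adjusted p = 8.398e-06). Calls in all of these lines but N were lost without 1 replicate number, where the adjusted p rose to 0.101 and 0.346 in E (number 1 or 4), 0.103 in K (number 3), 0.151 in KPC1 (number 2), 0.150 and 0.129 in T (number 1 or 3) and 0.170 in V (number 3).

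Thbs2 was below 3 CPM in mono-culture in the mean of every line but clone T. In clone H its libraries gave 0.315, 0.250, 0.541 and 0.305 CPM alone and 14.5, 29.3, 39.6 and 42.3 CPM in coculture. In clone T they gave 29.9, 38.1, 28.6 and 57.1 CPM alone and 100.2, 55.2, 89.7 and 107 CPM in coculture. Clone H separated completely, whereas in clone T 1 coculture library lay below the highest mono-culture library. From summed counts, Thbs2 was 101-fold higher in coculture in clone M (8 counts alone and 687 with fibroblasts, 95% counting interval 50.97 to 235), 87.3-fold in clone H (58.02 to 138), 9.71-fold in KPC1 (8.29 to 11.4) and 2.26-fold in clone T (2.16 to 2.37), where the intervals cover counting error only. It rose in 8 of 8 lines by edgeR, with log2 fold changes from 1.19 (SE 0.50) in clone T to 6.57 (SE 0.95) in clone M, and over the lines by 4.73 (SE 0.62, adjusted p = 0.00092). Without the libraries numbered 3 the rise in clone T did not pass (adjusted p = 0.173).

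**Figure D3:**
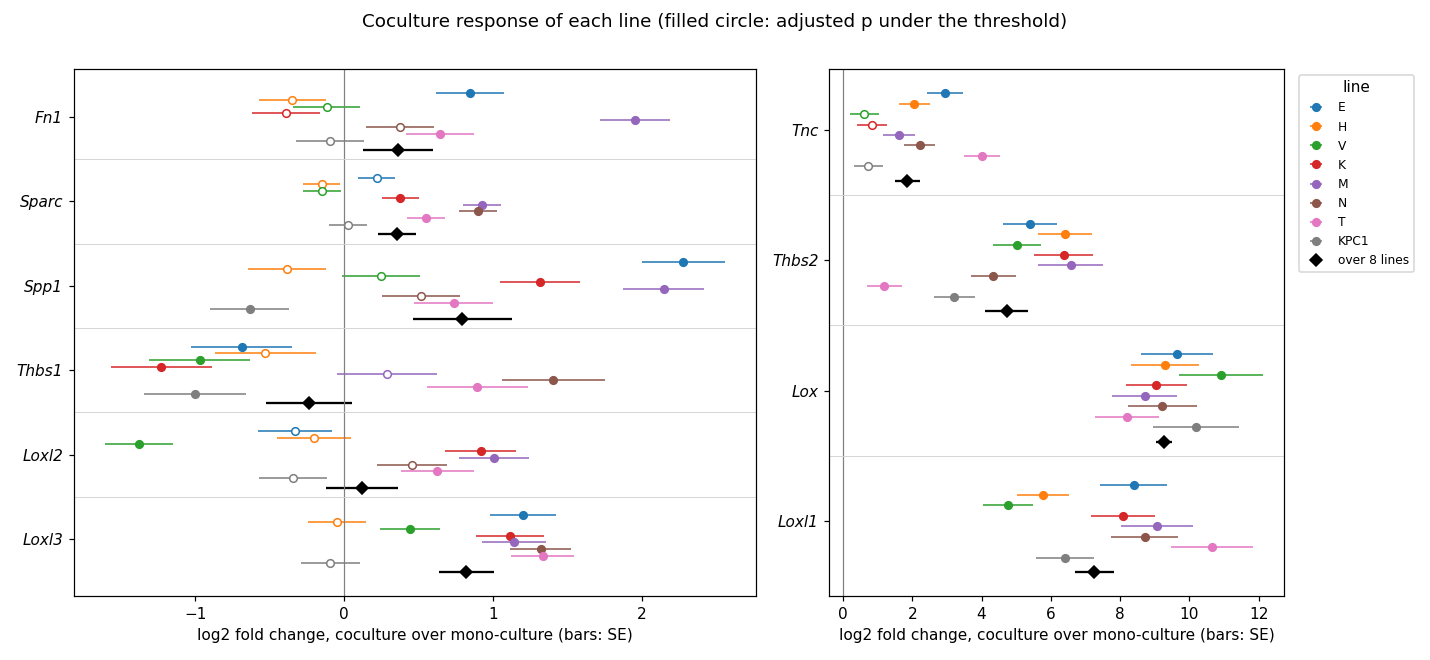
Log2 fold change of coculture over mono-culture for each gene, with a circle per line (filled where the adjusted p is under 0.1), a black diamond for the fit over the 8 lines and bars for the standard error, on separate scales at the left and right. Lox, Loxl1, Thbs2 and Tnc lie to the right of 0 in all 8 lines, while Fn1, Sparc, Spp1, Thbs1, Loxl2 and Loxl3 have lines on both sides.

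Lox, the enzyme that crosslinks fibrillar collagen and elastin, was at the edge of detection in mono-culture. In clone V its libraries held 0, 0, 0.0624 and 0 CPM alone and 11.4, 34.1, 44.4 and 89.8 CPM in coculture. In clone K they held 0.454, 0.0689, 0.336 and 0.209 CPM alone and 28.7, 49.7, 211 and 299 CPM in coculture. Every coculture library was above every mono-culture library in all 8 lines. Summed over 4 libraries, mono-culture gave from 1 count (clone V and KPC1) to 16 counts (clone K), and coculture from 1641 counts (KPC1) to 9195 counts (clone K). The ratio was 298-fold in clone T (95% counting interval 166 to 597), 560-fold in clone K (345 to 980) and 3082-fold in clone V (553 to 121753), the last from a single mono-culture count. Over the lines edgeR gave a log2 fold change of 9.26 (SE 0.23, adjusted p = 1.198e-08), a size that depends on the small count the model adds to libraries near 0. The interaction did not pass for Lox (adjusted p = 0.996), nor did the test among lines in mono-culture (adjusted p = 0.905), where a difference was not detectable at this depth.

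Loxl1, which acts mainly on elastin, followed the same course at a lower level. In clone T it was at 0 in all 4 mono-culture libraries and at 16.9, 8.42, 11.6 and 15.04 CPM in coculture. In V it was at 0.340, 0.154, 0.187 and 0.452 CPM alone and 1.87, 6.42, 5.97 and 16.3 CPM in coculture. The libraries were separated in all 8 lines. Loxl1 was at least 294-fold higher in coculture in clone T, taking the 3 counts that 0 counts over the 4 libraries allow, and 29.1-fold higher in clone V (18 and 509 counts, 95% counting interval 18.2 to 49.4). Over the lines it was higher by 7.25 on the log2 scale (SE 0.56, adjusted p = 3.894e-05 by edgeR), and the interaction did not pass (adjusted p = 0.136).

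Loxl2, a lysyl oxidase with scavenger receptor domains that acts on collagen type IV, was highest in clone V in mono-culture. There it fell from 76.9, 84.3, 64.003 and 88.1 CPM to 30.2, 34.8, 17.2 and 38.1 CPM, with no overlap. In clone M it went from 14.9, 18.3, 16.7 and 17.01 CPM to 29.8, 36.2, 31.3 and 37.02 CPM, again with no overlap. The change was -1.38 in clone V (SE 0.23, edgeR adjusted p = 1.281e-06), 1.00 in clone M (SE 0.23), 0.91 in clone K (SE 0.24) and 0.62 in clone T (SE 0.25), and did not pass in E, H, N or KPC1. Over the lines it was 0.12 (SE 0.24, adjusted p = 0.712), and the interaction passed (adjusted p = 9.436e-08). The call in clone K was lost without the libraries numbered 4 (adjusted p = 0.128) and that in clone T without those numbered 1 or 4 (0.215 and 0.187), and without those numbered 3 KPC1 passed with a fall of 0.62 (0.0606). With the replicate block clone N passed with a rise of 0.47 (adjusted p = 0.0884). A gene named RP23-103I12.13 ran closely with Loxl2, at 148 CPM alone and 50.9 CPM in coculture in clone V and at 30.8 and 64.05 CPM in clone M. Its position was not available in the annotation used here, so whether reads of Loxl2 were split between both entries was not tested.

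Loxl3, a related oxidase that also acts on fibronectin, rose in the lines where it was low. In clone N its libraries gave 13.6, 21.3, 15.2 and 15.2 CPM alone and 29.1, 39.3, 38.9 and 55.9 CPM in coculture. In clone T they gave 8.999, 7.63, 8.60 and 10.5 CPM alone and 26.9, 17.4, 22.5 and 23.2 CPM in coculture. In clone H, the highest, they gave 86.8, 85.4, 71.7 and 96.4 CPM alone and 86.5, 91.5, 77.7 and 72.7 CPM in coculture. Clones N and T separated and clone H overlapped. Loxl3 rose in T (1.33, SE 0.21), N (1.32, SE 0.21), E (1.20, SE 0.22), M (1.14, SE 0.21), K (1.11, SE 0.23) and V (0.44, SE 0.20), and did not pass in H (-0.05, SE 0.20) or KPC1 (-0.09, SE 0.20). Over the lines it was higher by 0.82 (SE 0.18, adjusted p = 0.00657 by edgeR). The call in clone V was lost without the libraries numbered 2 or 4 (adjusted p = 0.174 and 0.130). Loxl3 overlaps Htra2 on the opposite strand, which went from 30.5 to 76.6 CPM in clone E and from 31.4 to 57.99 CPM in clone T. Htra2 was also at a higher mean in coculture in clones V (32.9 and 71.3 CPM), N (37.3 and 69.6 CPM) and M (32.4 and 45.8 CPM), where Loxl3 rose. It was higher too in clone H (31.9 and 48.3 CPM) and KPC1 (54.05 and 72.7 CPM), where Loxl3 did not pass. In clone K, where Loxl3 rose, Htra2 went from 16.2 to 20.4 CPM. Whether reads of Htra2 entered the counts of Loxl3 was not tested. The library kit keeps strand, but whether the counting used it is not given in the sources used here.

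Lox, Loxl1, Thbs2 and Tnc moved with the fibroblast markers from library to library within a line. After the mean of each line was removed, the correlation across the 32 coculture libraries between log2 CPM and the log2 sum of Dcn, Fap, Postn and Thy1 was 0.961 for Loxl1, 0.954 for Lox, 0.952 for Thbs2 and 0.834 for Tnc, and 0.9496, 0.944, 0.942 and 0.794 without the 2 libraries farthest from the median. It was 0.564 for Loxl3, 0.472 for Sparc, 0.415 for Fn1, 0.360 for Loxl2, 0.206 for Spp1 and 0.0274 for Thbs1, beside a median of 0.0088 over all genes. These libraries share their sorts and their scaling, so the values are descriptions. The libraries that carry the number 1 had the lowest marker sum in 6 of 8 lines, and the medians by number were 31.4, 51.7, 77.0 and 100.3 CPM for numbers 1 to 4. Lox and Loxl1 were likewise lowest in number 1 in 6 of 8 lines, with medians for Lox of 22.5, 38.8, 65.9 and 97.3 CPM. What a number marks is not given in the labels.

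Relative to the marker sum, the gain of Loxl1 in coculture varied least of these genes, from 0.130 CPM per CPM of markers in clone V to 0.203 in clone E. For Lox the ratio was 1.62 in clone K and between 0.445 (KPC1) and 0.974 (clone H) elsewhere. For Thbs2 it ranged from 0.174 in clone M to 0.593 in clone T, and for Tnc from 0.162 in clone K to 0.631 in clone H. With numbers 1 and 2 alone, an alternative chosen after these values were seen, 7 of the 10 genes were higher over the lines, and with numbers 3 and 4 alone 6 were, Spp1 being lost (adjusted p = 0.167). The log2 fold change of Lox was 8.19 with numbers 1 and 2 and 9.75 with numbers 3 and 4, and that of Tnc 1.41 and 2.15. How much of each rise came from fibroblast RNA in the sorted pools was not tested.

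**Figure D4:**
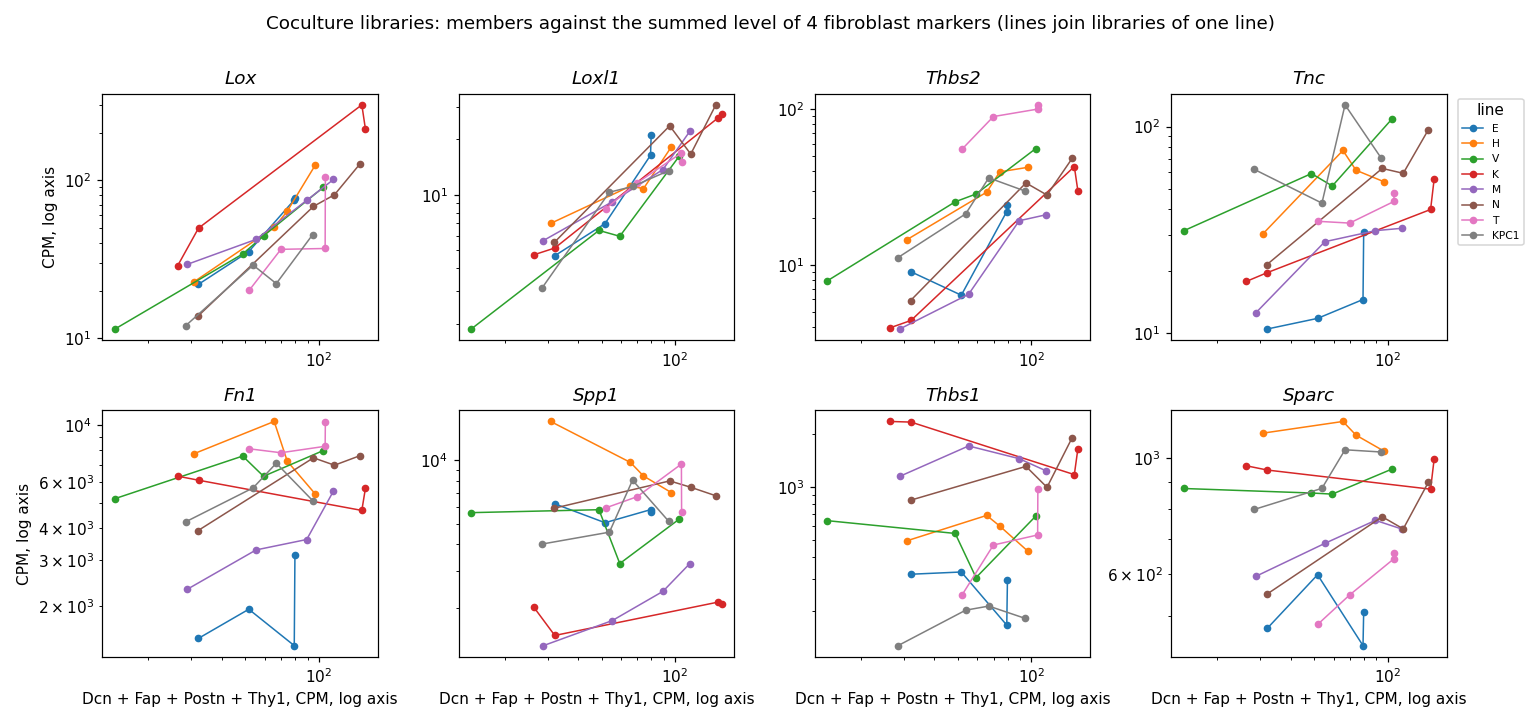
CPM of 8 of the genes against the summed CPM of Dcn, Fap, Postn and Thy1 in the 32 coculture libraries, both axes logarithmic, with the 4 libraries of a line joined and coloured by line. Lox, Loxl1, Thbs2 and Tnc climb with the marker sum within lines (r of 0.954, 0.961, 0.952 and 0.834), while Spp1 and Thbs1 do not follow it (0.206 and 0.0274).

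Next, the lines were compared with each other in mono-culture. An F test over the 8 lines was passed by 8 of the 10 genes, Lox and Loxl1 being the exceptions, in a table where 95.1% of the genes tested passed. The widest range was in Thbs2, from 0.127 CPM in clone M to 38.4 CPM in clone T. Clone T was above every library of the next line, KPC1, while the remaining neighbours overlapped. Spp1 ran from 494 CPM in clone M (SD 191, n = 4) to 13197 CPM in clone H (SD 935), 26.7-fold apart. In its order H, KPC1, N, V, T, E, K, M, the steps from H to KPC1, from T to E and from E to K were larger than the spread of the libraries. Tnc ran from 2.18 CPM in clone E (SD 0.362) to 45.8 CPM in KPC1 (SD 25.4), 21.1-fold apart, with a gap only above clones T and E. Loxl3 ran from 5.21 CPM in clone K (SD 1.57) to 85.1 CPM in clone H (SD 10.2), 16.3-fold apart, and clone H stood above KPC1 without overlap.

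Thbs1 was highest in clone K at 4402 CPM (SD 1955), above every library of clone M at 1138 CPM (SD 211), and the neighbours in the rest of its order down to clone T at 299 CPM (SD 211) overlapped. Fn1 fell into 6 lines from 9784 CPM in clone H (SD 1177) to 5002 CPM in clone N (SD 1300), each overlapping its neighbour, and the pair E at 1110 CPM (SD 221) and M at 954 CPM (SD 94.8) below. Sparc was between 728 and 1230 CPM in H, V, KPC1 and K and between 366 and 434 CPM in E, T, N and M, with a gap between K and E. Loxl2 was highest in clone V at 78.3 CPM (SD 10.6), then in KPC1 at 30.6 CPM (SD 6.66), both without overlap with the next line. By mean, clone H was thus the highest line for Fn1, Sparc, Spp1 and Loxl3, and clone M the lowest for Fn1, Sparc, Spp1 and Thbs2. The libraries of clone H were above the next line for Spp1 and Loxl3 and overlapped it for Fn1 and Sparc. Those of clone M overlapped the neighbouring line for each of its genes.

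The lines lay closer together in coculture. The SD of log2 CPM over the 8 lines was smaller in coculture for all 10 genes, as it was for 57.4% of all genes tested. Between the highest and the lowest line, Spp1 went from 26.7-fold in mono-culture to 5.22-fold in coculture, Tnc from 21.1-fold to 4.48-fold and Fn1 from 10.3-fold to 4.31-fold. Loxl3 went from 16.3-fold to 7.33-fold, Loxl2 from 10.2-fold to 4.39-fold, Sparc from 3.36-fold to 2.19-fold and Thbs1 from 14.7-fold to 10.4-fold. For Lox and Loxl1 the spread in mono-culture rests on a few counts. The response itself differed between lines for 8 of the 10 genes by the interaction test, all but Lox and Loxl1, where 71.3% of all genes passed. The 4 fibroblast markers above, picked for a level near 0 in mono-culture, were present in coculture in all lines. Their part in the narrower spread was not tested.

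**Figure D5:**
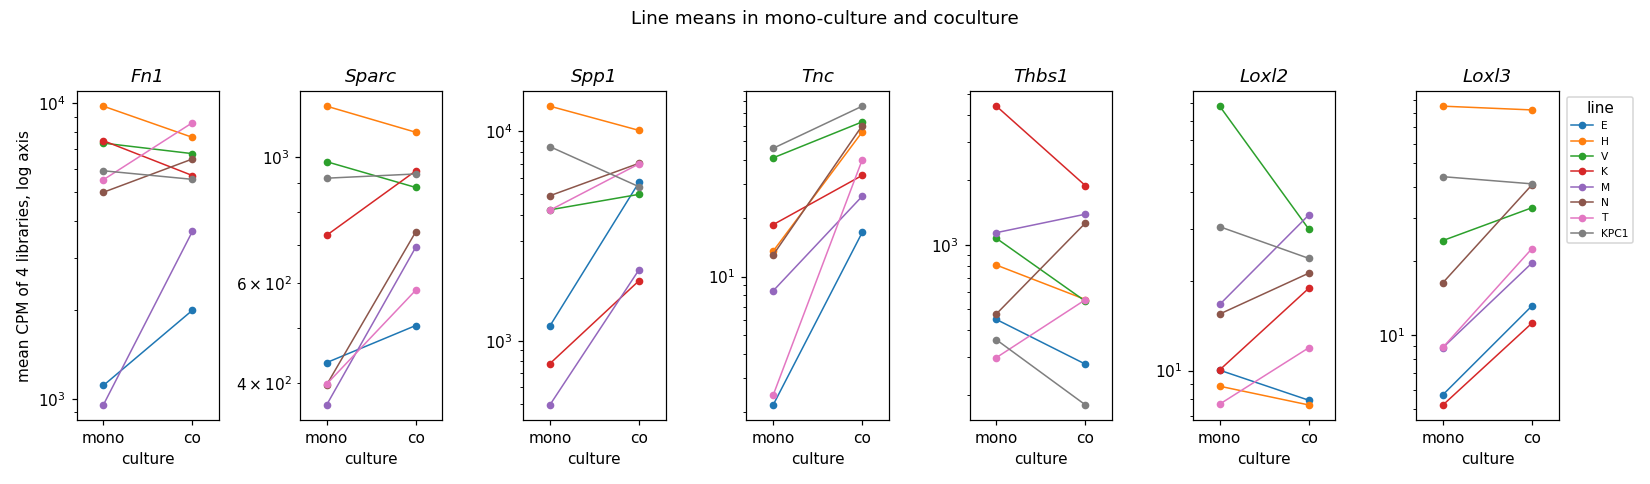
Mean CPM of 4 libraries in mono-culture and coculture, on logarithmic axes, for the 7 genes whose means were above 2 CPM in every line in both cultures, with each line in its own colour. The lines converge for Spp1, Tnc and Fn1, whose highest line is 26.7, 21.1 and 10.3 times the lowest in mono-culture and 5.22, 4.48 and 4.31 times in coculture.

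Group 1 and group 2 clones were then compared in mono-culture with the clone as the replicate (3 against 4). Of the 10 genes, 8 passed the filter on low counts and 0 were called by edgeR's quasi-likelihood test, as were 0.0% of the 14829 genes tested, of which 766 had an unadjusted p under 0.05. DESeq2 called 157 of the 15792 genes with an adjusted p and 0 of the members. Of the 8 members tested by edgeR, 6 had an adjusted p in DESeq2. Loxl3 was the 1 member with an unadjusted p under 0.05 (log2 fold change 1.96 in group 1 over group 2, SE 0.81, adjusted p = 0.888). It averaged 38.3 CPM in group 1 (SD 41.5, n = 3) and 9.85 CPM in group 2 (SD 4.67, n = 4), and clone E of group 1, at 5.73 CPM, lay inside the range of group 2. Sparc averaged 882 CPM (SD 407) and 472 CPM (SD 171), and its groups overlapped too. With SEs of 0.40 to 2.08 on the log2 scale, the 7 clones leave such differences undecided.

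Other genes of the same families and pathways were read from lists. Of 24 further matricellular and family genes, 18 were tested, 3 were higher over the lines (Postn 12.14, Sparcl1 2.82 and Wisp1 1.20 on the log2 scale) and 4 lower (Tnxb -2.77, Tnr -2.46, Comp -1.38 and Nov -1.01), and 11 did not pass. Their median was -0.21. Postn, which encodes periostin, is itself one of the 4 fibroblast markers, and Loxl4, the last enzyme of the oxidase family, gave 0.17 (SE 0.11, adjusted p = 0.224 by edgeR). Of 17 receptor genes 14 were tested, 5 were higher and 3 lower, with a median of 0.06. Over all genes tested 26.8% were higher and 25.2% lower, so the counts of both lists lie near the background and are no result about the lists. The largest rises were in the integrin chains Itga8 (5.22), Itga9 (2.92) and Itga2 (1.12), of which Itga8 did not exceed 1.94 CPM and Itga9 0.182 CPM in any line. Itgb5 fell by 0.68, Itgb3 by 0.42 and the scavenger receptor Lrp1 by 0.40. The osteopontin receptor Cd44 (0.05) and the thrombospondin receptor Cd47 (0.07) did not pass.

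Of 26 genes that act with the lysyl oxidases on collagen and elastin, all were tested, 16 were higher over the lines, 3 lower and 7 did not pass, with a median of 0.86, beside the same 26.8% and 25.2% over all genes. The largest rises were in the fibrillar collagen chains Col5a2 (10.33) and Col1a2 (9.05), the substrates of the enzymes, and in Tll1 (5.26), a protease that processes procollagen. Col5a2 was at most 0.118 CPM in mono-culture and at least 52.2 CPM in coculture. The falls were in P4ha3 (-1.27), a collagen prolyl hydroxylase, in Pcolce (-0.54), the enhancer of procollagen processing, and in Fkbp14 (-0.47). Col1a1, Col1a2 and Col3a1 are in this list and in the fibroblast marker list as well, so the 2 lists are not independent. Of the 19 fibroblast markers tested, 16 were higher in coculture, as given above. The part of fibroblast RNA in the rises of this list was not tested.

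Finally, the genes whose pattern was most like that of each member were read from the Pearson correlation of log2 CPM over the 16 means of line and culture. For Lox these were Fhl1 (0.989) and Postn (0.987), and for Loxl1 Tfpi (0.995) and Mrc2 (0.990). For Tnc they were Zeb2 (0.933) and Sin3a (0.925), for Thbs2 Kcnab1 (0.917) and Ankrd29 (0.893), and for Thbs1 Smarca4 (0.920) and Specc1l (0.893). Fn1 was closest to Scamp5 (0.931) and Ephb2 (0.928), Sparc to Itgb8 (0.948) and Lgalsl (0.943), and Spp1 to Atp10a (0.948) and Emp2 (0.934). Loxl2 was closest to RP23-103I12.13 (0.995) and Npr1 (0.890), and Loxl3 to Alox5ap (0.945) and Fam114a1 (0.945). The 16 means share lines and scaling, and for genes near 0 in mono-culture the value mostly reflects the step between cultures.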

How the data were processed

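RNA was measured in 64 polyA libraries (Agilent SureSelect strand specific kit, Illumina NextSeq, paired-end). The deposited counts per gene are whole numbers that the authors made with featureCounts on mm10, and the authors' second table gives RPKM. The aligner is not given in the sources used here. The processing notes also name edgeR. Whether libraries are separate cultures is not stated, so p-values measure the spread between these libraries, which may be technical. None of the 96 within-group library pairs agreed within sampling noise (chi-square per gene 4.46 to 65.55).

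Counts were filtered with filterByExpr, scaled by TMM and tested in edgeR 4.0.16 (R 4.3.3) with glmQLFit and glmQLFTest, Benjamini-Hochberg over all genes tested, at the study's threshold of 0.1. The response over lines was fitted on 16 sums with line as covariate. Tests within lines, among lines and of their interaction used 64 libraries in 16 groups, and the metabolic groups 7 sums. DESeq2 1.42.0 and limma 3.58.1 (on log2 of RPKM plus 1 or 0.1) served as alternatives. A further alternative added a term for whether the running number in the sample title was up to 43 or above it. The titles do not say what this split marks, and all mono-culture libraries of clone K were above it. SEs were taken as the log2 fold change over the square root of F. Folds for genes near 0 use summed counts with exact 95% intervals and a floor of 3 counts, which cover counting error only. CPM correlations added a prior count of 0.5. Totals of 11178721 to 21333683 counts per library set the precision. Gene positions and overlaps were read from GENCODE, and start regions from RefSeq. The scripts were tested on simulated data.

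The members, the lists and the 4 fibroblast markers were chosen with earlier results of these data known. Genes named are the members, up to 3 genes per direction and list with the largest fold change among those past the threshold, the 2 genes most like each member, and fibroblast markers. Nov, the ductal, macrophage and remaining receptor genes were named after their values were seen. Replicate numbers are shared between cultures in the labels, which do not say what they mark. Every pair of a line correlated above 0.1 in clone N alone, so the main tests used no pairing in any line, clone N included. The block was kept as an alternative, and with it Fn1, Spp1 and Loxl2 passed in clone N as well. One part of the genotype of the clones is not reported here.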

Additional observations from a re-analysis of the deposited data

Results flagged for a closer look

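In groups of 4 libraries, and over the means of the 8 lines, values were checked for 1 that stood apart by Dixon's 95% criterion. Of 158 groups with a mean of at least 10 counts, 10 held such a value, where chance gives about 1 in 20 groups, or 7.9. Within lines these were Fn1 in clone N in coculture, whose lowest library was at 3903.88 CPM with the others from 6982 to 7589, and Thbs1 in clone M in mono-culture, whose lowest library was at 824.04 CPM with the others from 1198 to 1269. In clone K in coculture the highest library of Loxl2 was at 22.66 CPM with the others from 17.6 to 18.01, and that of Loxl3 at 18.14 CPM with the others from 8.42 to 9.13, both in the library numbered 4.

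Over the lines, clone K was apart for Thbs1 in mono-culture (4401.923 CPM, the others up to 1138) and for Lox in coculture (147.092 CPM, the others up to 72.2). Clone T was apart for Thbs2 in mono-culture (38.435 CPM, the others up to 2.67) and in coculture (87.933 CPM, the others up to 31.4). Clone V was apart for Loxl2 in mono-culture (78.345 CPM, the others up to 30.6) and clone H for Loxl3 in coculture (82.121 CPM, the others up to 41.1).

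The response to coculture differed between lines by the interaction test for 8 genes. The highest and the lowest log2 fold change of a line were 5.38 apart for Thbs2, 3.40 for Tnc, 2.91 for Spp1, 2.63 for Thbs1, 2.39 for Loxl2, 2.34 for Fn1, 1.43 for Loxl3 and 1.08 for Sparc.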

How the results depend on the processing

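Total counts of members called stayed within 1.5 times of those reported under every alternative run, while the 6 lower calls within lines were 3 with replicates 3 and 4 alone and 4 to 7 in the other settings. Over the lines, 5 to 7 members were higher when a replicate number or a line was left out, 6 at a threshold of 0.05 and with limma on RPKM, and 7 with RLE size factors, without a filter and with DESeq2, with 0 lower in each. Within lines, the 57 calls were 52 to 57 without 1 replicate number and 54 at a threshold of 0.05. They were 50 with replicates 1 and 2 alone and 52 with replicates 3 and 4 alone. With the term for the running number in the title they were 56. Of 880 refitted values within lines, 38 lost and 15 gained a call and none that was called on either side changed its direction. Only Spp1 and Sparc lost the call over lines in any setting. The cause of the losses was not tested.

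Whether the replicate numbers pair mono-culture and coculture libraries was not settled. The correlation of deviations between libraries of 1 number was over 0.1 in 17 of 32 pairs (from -0.069 to 0.291), and in all 4 pairs of clone N (0.23 to 0.291) but of no other line. Of the 32 mono-culture libraries, 24 were closest to the coculture library of their own number, a hint of pairing from the data and not from the design. With a replicate block, 63 combinations of gene and line passed, 56 higher and 7 lower, and 9 members passed the interaction test. The share of all genes passing was not computed for this setting, so these counts are no result about the members. No call within a line was lost, and 6 were gained, those of Fn1 in H (lower) and N, Tnc in K and KPC1, and Spp1 and Loxl2 in N. On 64 libraries with replicate block 8 members were higher over lines, Fn1 being the one added (log2 fold change 0.33, adjusted p = 0.031 by edgeR). This fit counts the libraries of a line as replicates, so its p-values do not measure the spread between lines. The share of all genes passing was not computed for it either, so its count is no result about the members. For Lox and Loxl1 the depth leaves too few mono-culture counts to compare the lines.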
